A study of Homo sapiens with 4 samples.

Results

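The genes described here encode the nuclear subunits of respiratory complexes II, III and IV, of ATP synthase (complex V) and cytochrome c, the carrier between complexes III and IV. They are 51 of the 20323 genes in the deposited tables and were chosen by symbol, with no measured value in the rule (SDHA to SDHD, UQCR genes, CYC1, CYCS, COX4 to COX8 genes, and ATP5F1, ATP5M, ATP5P and ATP5IF1 genes). The symbols matched 57 rows, of which 1 readthrough model was left out. Of 5 symbols with several rows, the row with the largest summed count was taken. Complex II had 4 genes, complex III 10, complex IV 17, complex V 19 and cytochrome c 1.

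Ribosome footprints, the stretches of message that a ribosome protects from RNase, were sequenced from HCT-8, a line from a human colorectal adenocarcinoma, in a 5-FU-resistant form that withstands 5-fluorouracil. Cells of the NC group carried negative control plasmids and cells of the OE group carried METTL14 overexpression plasmids. METTL14 binds RNA beside METTL3, the catalytic subunit of the N6-methyladenosine writer of messages. Both groups received cycloheximide at 100 ug/mL to stop elongating ribosomes in place, and each group held 2 libraries from experiments that the submitters call independent. All libraries came from 1 resistant line after transfection of plasmids, and the promoter that drives METTL14 on its plasmid is not given in the sources used here. In such bulk libraries without total RNA, fewer messages per cell, fewer cells that carry a message and fewer ribosomes per message cannot be told apart.

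Oxidative phosphorylation is the main route by which mitochondria turn the oxidation of nutrients into ATP. Complex II passes electrons from succinate to ubiquinone, complex III passes them to cytochrome c, complex IV passes them to oxygen, and complex V uses the proton gradient that complexes III and IV help to build. Complex II is encoded in the nucleus alone, while complexes III, IV and V combine nuclear subunits, which are made on cytosolic ribosomes and imported, with a few core subunits made inside the mitochondrion.

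The 4 libraries held between 7742274 (OE replicate 1) and 24392875 (OE replicate 2) estimated counts, and a value of 3 counts, the limit that a count of 0 allows, stood for 0.136 to 0.286 CPM. CPM is the count relative to a library size scaled by TMM factors. It is not corrected for message length, so CPM is compared between libraries and not between genes. METTL14, the check of the labels, had 44.5 and 47.6 CPM with the NC plasmid against 448 and 91.2 CPM with METTL14, above NC in both. Its log2 fold change was 2.55 (SE 0.81), which did not pass the quasi-likelihood test of edgeR after Benjamini-Hochberg adjustment (adjusted p = 0.734). Epithelial markers were present: 14 of 15 passed the filter on low counts, led by keratin KRT8, and they summed to 21830 to 22472 CPM in NC and to 6503 and 25129 CPM in OE. The keratins KRT8, KRT18 and KRT19 carried most of that sum. Of the 14 tested markers, 6 (42.9%) lay below both NC libraries in both OE libraries and 1 (7.14%) lay above. Of all tested genes, 20.4% lay below and 19.9% above. Among the 6 were VIL1 (74 and 82.2 against 32.9 and 40.3 CPM) and CLDN7 (319 and 290 against 145 and 138 CPM). Of the 14, 7 were in the decile of tested genes with the highest CPM in NC. The median log2 difference of that decile from NC was -1.08 in OE replicate 1. KRT20, CEACAM6 and CEACAM5 were at or near 0, with at most 1.45 CPM in any library. Immune markers summed to 84.1 to 87.9 CPM in NC and 33.5 to 44.9 CPM in OE, nearly all of it CD68 and CD14, while CD3D, CD3E and MS4A1 were at 0. Fibroblast markers summed to 16.4 to 16.6 CPM in NC and 6.51 to 11 CPM in OE, and endothelial markers to at most 0.476 CPM. The part of these markers in the results below was not tested.

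Of the 51 genes, 43 passed the filter and were tested. The other 8 were forms of a subunit known from other tissues or near-copies. COX4I2, COX6A2, COX7A1, COX7B2, COX8C and UQCRHL had a count of 0 in all 4 libraries, so each lay under the limit of 3 counts. COX6B2 had between 2 and 8 counts, and ATP5MGL had 1.14 estimated counts in OE replicate 2 and 0 elsewhere. The heart and muscle forms COX6A2 and COX7A1 and the testis forms COX6B2, COX7B2 and COX8C were thus at or near 0 beside COX6A1, COX7A2, COX6B1, COX7B and COX8A. UQCRHL is a near-identical copy of UQCRH, so reads of the pair cannot be told apart with certainty. Estimated counts with a fraction, which arise when reads are shared among gene models, occurred in 11 of the 51 genes, among them COX6A1, COX4I1 and UQCR11.

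None of the 43 tested genes passed the comparison of OE with NC in the quasi-likelihood test of edgeR after Benjamini-Hochberg adjustment (0 of 43, smallest adjusted p = 0.734), where the share called among all 12560 tested genes was also 0%. At an unadjusted p below 0.05 there was 1 gene, ATP5ME, against 5.5% of all tested genes. The DESeq2 Wald test called 0 of 43 and 25 of all 12560 genes, with 2 of 43 and 846 of all at an unadjusted p below 0.05. The likelihood ratio test of edgeR called 0 of 43 and 29 of all, with 1 and 940 below 0.05. Limma with quality weights called 0 of 43 and 0 of all, with 6 and 629 below 0.05. The median log2 fold change was -0.38, against 0.09 over all tested genes. With library totals as the only scaling the median of all genes moved by 0.31, and the 43 genes then lay at -0.17, or -0.58 relative to all genes in place of -0.47.

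The OE libraries did not place these genes alike. In OE replicate 1 all 43 tested genes lay below both NC libraries, with a median log2 difference of -1.18 from the NC mean and a range from -1.97 (COX6A1) to -0.15 (UQCRQ). In OE replicate 2, 29 lay above the NC mean and 14 below it, with a median of 0.14 and a range from -1.14 (ATP5ME) to 1.05 (ATP5PO). The median log2 difference of OE replicate 1 minus OE replicate 2 was -1.33 over these genes, against 0.05 over all tested genes. About such shared shifts, the log2 difference between libraries varied from gene to gene. Its standard deviation over these genes was 0.14 for the NC pair and 0.59 for the OE pair. Over all tested genes it was 0.46 and 1.30. These standard deviations leave out the shift that the genes share. Together the 51 genes held 1.41% and 1.34% of the counts in NC, 0.851% in OE replicate 1 against 1.52% in OE replicate 2.

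**Figure D1:**
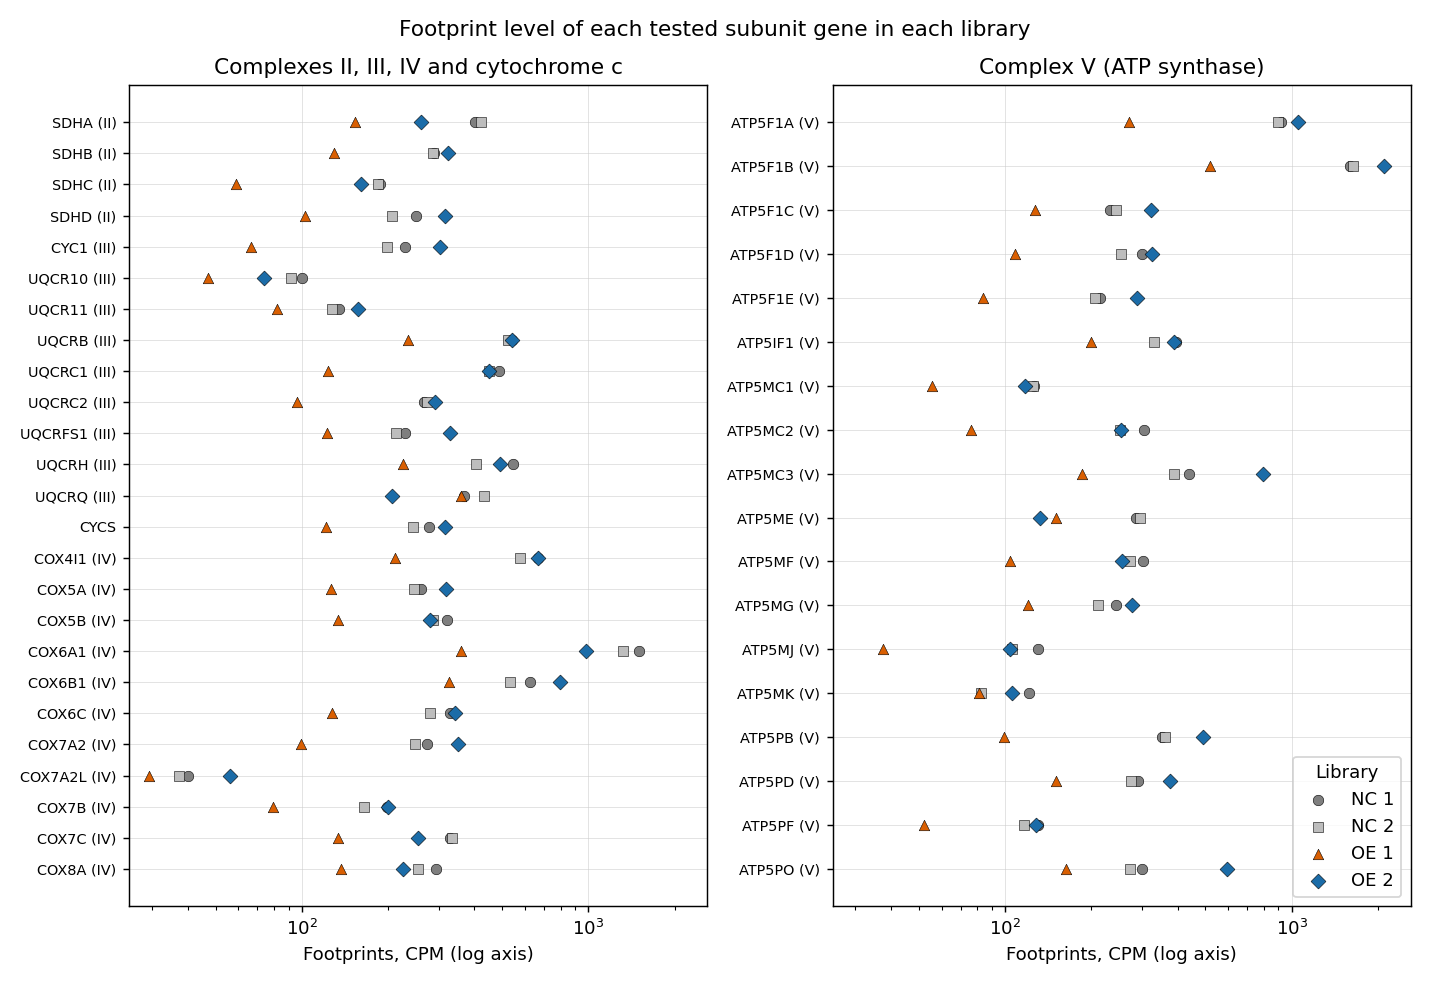
Footprint level in CPM (log axis) of each of the 43 tested genes, with 1 point per library: circles and squares for NC replicates 1 and 2, triangles for OE replicate 1 and diamonds for OE replicate 2. The triangles lie to the left of both NC points for each gene, closest for UQCRQ and ATP5MK, with UQCRQ at 359 CPM against 368 and 433 CPM in NC, while the diamonds lie on either side.

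Both OE libraries lay below both NC libraries for 13 of the 43 genes (30.2%), where 20.4% of all tested genes did so. Both lay above NC for 0 of 43, where 19.9% of all tested genes did so. These shares are over genes of all levels, while all 43 genes lay below both NC libraries in OE replicate 1. None of the 43 could thus lie above NC in both OE libraries, and OE replicate 2 alone decided which 13 lay below. A share over genes of the same level was not made. The 13 genes were SDHA and SDHC of complex II, UQCR10, UQCRC1 and UQCRQ of complex III, COX5B, COX6A1, COX7C and COX8A of complex IV, and ATP5MC1, ATP5ME, ATP5MF and ATP5MJ of complex V. Of these, UQCRC1, ATP5MJ and COX5B were only just apart. OE replicate 2 had 449 CPM of UQCRC1 against 450 CPM in NC replicate 2, 104 against 106 CPM of ATP5MJ and 280 against 286 CPM of COX5B.

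OE replicate 1 differed from NC with the level of a gene. Of the 43 genes, 36 lay in the decile of tested genes with the highest CPM in NC, whose median log2 difference was -1.08 in OE replicate 1 against -0.08 in OE replicate 2. Set against the median of all genes in their own decile, the 43 genes had a median of -0.18 in OE replicate 1, with 30 of 43 below, and 0.22 in OE replicate 2, with 30 of 43 above. The median difference of -1.18 in OE replicate 1 was thus mostly shared with other genes of that level. The part of this level dependence in the single genes' values was not tested.

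**Figure D2:**
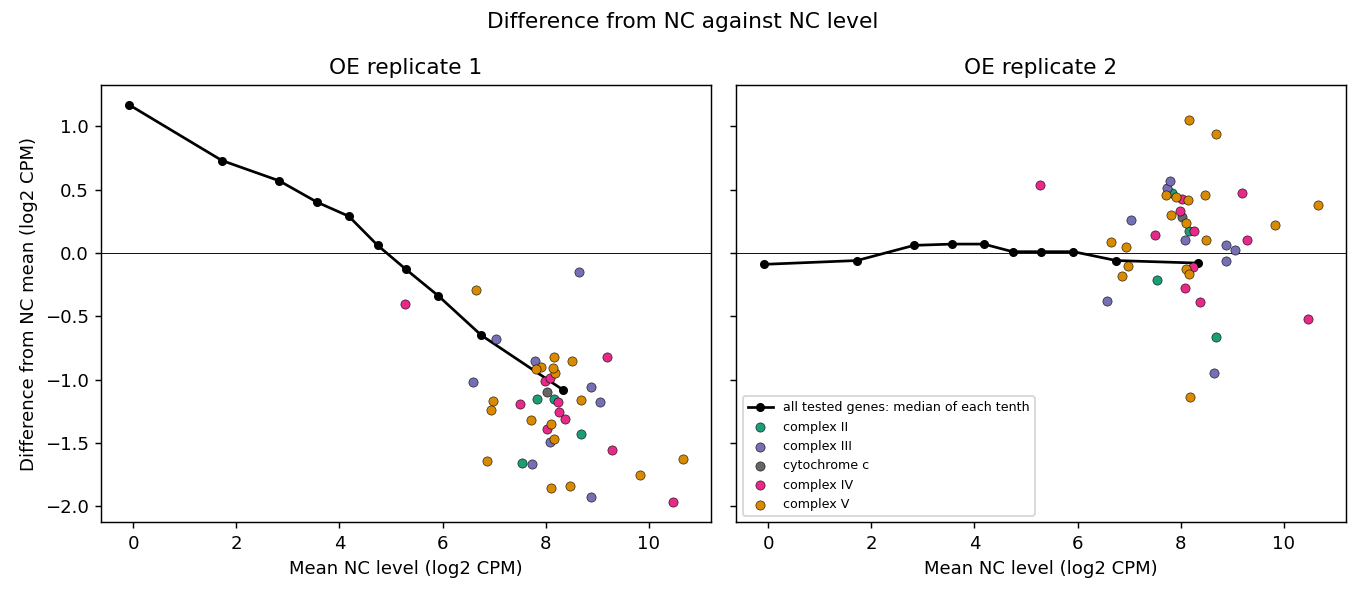
Log2 difference of each OE library from the NC mean against the mean NC level (log2 CPM). The black line joins the medians of all tested genes in deciles of NC level and the coloured points are the 43 genes by complex. In OE replicate 1 the line runs from 1.17 to -1.08 and the points gather about its lower end, while in OE replicate 2 the line stays between -0.09 and 0.07 and the points spread from -1.14 to 1.05.

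The complexes differed from one another by less than the genes within a complex or the OE libraries did. The median log2 fold change was -0.55 for complex II (4 genes, from -0.99 to -0.13), -0.46 for complex III (9 genes, from -0.71 to 0.03), -0.38 for complex IV (11 genes, from -1.07 to 0.15) and -0.30 for complex V (18 genes, from -1.04 to 0.40). Complex V minus complex II, the widest gap, was 0.25, and the same gap of medians by library was 0.08 for OE replicate 1 against 0.25 for OE replicate 2. The medians of complexes II, III, IV and V were -1.29, -1.06, -1.19 and -1.21 in OE replicate 1 against -0.02, 0.06, 0.14 and 0.23 in OE replicate 2, so each complex differed more between its OE libraries than from another complex. Both OE libraries lay below both NC libraries for 2 of 4 tested genes of complex II, 3 of 9 of complex III, 4 of 11 of complex IV and 4 of 18 of complex V. Of all tested genes, which span all levels, 20.4% did so. Genes are not replicates of a complex, so no test was made of these differences.

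**Figure D3:**
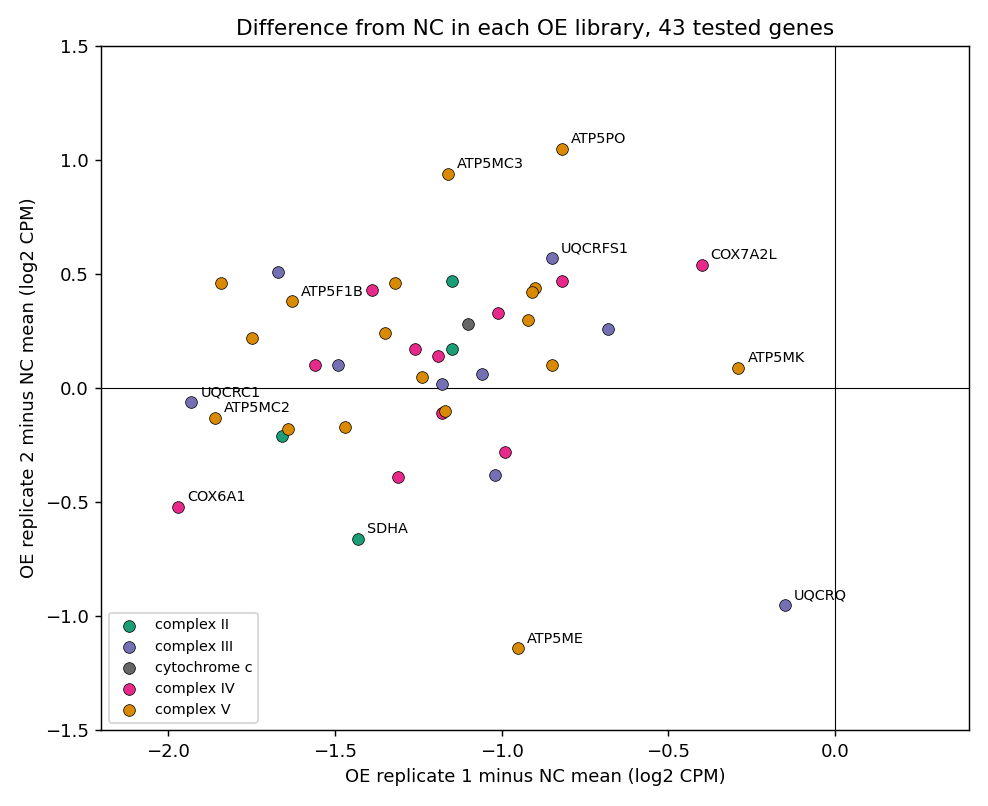
Log2 difference from the NC mean in OE replicate 1 (horizontal) and OE replicate 2 (vertical) for the 43 tested genes, coloured by complex. All points lie left of 0, at -0.15 or lower, and the complexes overlap; ATP5PO and ATP5MC3 stand at the top, ATP5ME and UQCRQ at the bottom.

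Complex II oxidises succinate and is also an enzyme of the citric acid cycle. SDHA (ENSG00000073578), the flavoprotein that holds the succinate site, had 402 and 421 CPM with the NC plasmid against 153 and 260 CPM with METTL14, on average 411 ± 13.4 and 206 ± 75.7 CPM (SD, n = 2 each). Both OE libraries lay below both NC libraries, a log2 fold change of -0.99 (SE 0.46, edgeR adjusted p = 0.734). Its partner SDHB, which carries the iron-sulfur clusters, had 290 and 286 CPM with the NC plasmid against 130 and 324 CPM with METTL14, so the OE libraries enclosed the NC libraries. The membrane anchors also parted: SDHC had 187 and 185 CPM with the NC plasmid against 59 and 161 CPM with METTL14, and SDHD had 250 and 207 CPM with the NC plasmid against 103 and 316 CPM with METTL14. The log2 fold changes of SDHB, SDHC and SDHD were -0.34, -0.76 and -0.13. In OE replicate 2, SDHA was thus the gene of complex II farthest from NC, at 0.632 times the NC mean.

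In complex III, the electron-carrying subunits encoded in the nucleus are cytochrome c1 (CYC1) and the Rieske iron-sulfur protein (UQCRFS1). CYC1 had 229 and 198 CPM with the NC plasmid against 66.6 and 303 CPM with METTL14, and UQCRFS1 had 229 and 213 CPM with the NC plasmid against 122 and 328 CPM with METTL14. Both spanned NC, with log2 fold changes of -0.21 and 0.03, and both were above NC in OE replicate 2; they are described after their values were seen. Of the core proteins, which face the matrix, UQCRC1 had 487 and 450 CPM with the NC plasmid against 123 and 449 CPM with METTL14 (log2 fold change -0.71, SE 0.70). UQCRC2 had 268 and 273 CPM with the NC plasmid against 96.3 and 291 CPM with METTL14 (log2 fold change -0.48).

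Of the small subunits of complex III, UQCRQ had a course of its own. UQCRQ, a membrane subunit next to cytochrome b, had 368 and 433 CPM with the NC plasmid against 359 and 207 CPM with METTL14. It was the gene nearest to NC in OE replicate 1 (log2 difference -0.15) and among the lowest in OE replicate 2 (-0.95). UQCRQ and ATP5ME were the only genes of the 43 with a lower CPM in OE replicate 2 than in OE replicate 1. For UQCRQ the log2 fold change was -0.50 (SE 0.48, edgeR adjusted p = 0.784). UQCR10, another small membrane subunit, had 99.9 and 91.5 CPM with the NC plasmid against 47.2 and 73.6 CPM with METTL14, below NC in both OE libraries (log2 fold change -0.66, SE 0.36). UQCRB, which lies near the ubiquinone site, had 542 and 525 CPM with the NC plasmid against 235 and 540 CPM with METTL14. The hinge protein UQCRH, which helps cytochrome c to dock, had 546 and 404 CPM in NC, the widest gap between NC libraries in complex III, and 225 and 491 CPM in OE. UQCR11 had 135 and 127 CPM with the NC plasmid against 81.8 and 157 CPM with METTL14. The log2 fold changes of UQCRB, UQCRH and UQCR11 were -0.46, -0.41 and -0.14. Cytochrome c itself (CYCS), which also triggers apoptosis when it leaves mitochondria, had 278 and 244 CPM with the NC plasmid against 121 and 315 CPM with METTL14 (log2 fold change -0.26, SE 0.57).

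COX6A1 of complex IV had the lowest fold change of the 43 genes. This subunit sits at the contact of the complex IV dimer. COX6A1 (ENSG00000111775) had 1500 and 1323 CPM with the NC plasmid against 360 and 985 CPM with METTL14, on average 1411 ± 125 and 672 ± 442 CPM (SD, n = 2 each). Both OE libraries lay below both NC libraries, with a log2 fold change of -1.07 (SE 0.69, edgeR adjusted p = 0.734), and OE replicate 2 was at 0.698 times the NC mean. The small membrane subunits COX7C and COX8A were also lower in both: COX7C had 330 and 335 CPM with the NC plasmid against 134 and 255 CPM with METTL14. COX8A had 293 and 254 CPM with the NC plasmid against 137 and 225 CPM with METTL14. Their log2 fold changes were -0.78 (SE 0.48) and -0.59 (SE 0.43). COX5B, which binds zinc on the matrix side, had 320 and 286 CPM with the NC plasmid against 134 and 280 CPM with METTL14 (log2 fold change -0.55).

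For the other tested genes of complex IV the groups overlapped. COX4I1, a subunit that contacts the catalytic core, had 669 and 578 CPM with the NC plasmid against 211 and 669 CPM with METTL14. COX6B1, on the intermembrane side where cytochrome c binds, had 625 and 535 CPM with the NC plasmid against 327 and 799 CPM with METTL14 (log2 fold change -0.04), with the OE libraries on either side of NC. COX5A, COX6C, COX7A2 and COX7B had log2 fold changes of -0.19, -0.38, -0.21 and -0.38, each with OE replicate 1 below and OE replicate 2 above the NC mean. COX7A2L, which takes part in supercomplexes of complexes III and IV, had 40.2 and 37.3 CPM with the NC plasmid against 29.4 and 56.3 CPM with METTL14 (log2 fold change 0.15). Its share of the summed COX7A2 and COX7A2L counts was 12.8% and 13% in NC, 22.8% in OE replicate 1 against 13.8% in OE replicate 2. The exact (Clopper-Pearson) 95% intervals were 12 to 13.7%, 12.1 to 14%, 20.6 to 25.2% and 13.1 to 14.5%. They cover counting error only, and reads are not independent molecules. An exact two-sided permutation test over the libraries gave p = 0.333 for this share, the smallest possible with 2 against 2. COX7A2L lay in decile 7 of NC level and COX7A2 in decile 10, the highest. Set against the medians of these deciles, COX7A2L and COX7A2 lay at -0.27 and -0.31 in OE replicate 1. The part of level in the share of COX7A2L was not tested.

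ATP synthase has a catalytic head, a central stalk that turns with a ring of c subunits in the membrane, a peripheral stalk that holds the head still, and small membrane subunits at the base. The beta subunit of the head, ATP5F1B (ENSG00000110955), had 1594 and 1639 CPM with the NC plasmid against 521 and 2107 CPM with METTL14. The alpha subunit ATP5F1A had 920 and 896 CPM with the NC plasmid against 270 and 1056 CPM with METTL14. Both lay far below NC in OE replicate 1 but above it in OE replicate 2, with log2 fold changes of -0.30 (SE 0.82) and -0.45 (SE 0.77). The central stalk subunits ATP5F1C, ATP5F1D and ATP5F1E followed the same course, with log2 differences of -0.90, -1.35 and -1.32 in OE replicate 1 against 0.44, 0.24 and 0.46 in OE replicate 2.

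The peripheral stalk genes were above the NC mean in OE replicate 2 in 4 of 4 cases, ATP5PF by only 0.05 on the log2 scale. In that library 29 of the 43 genes were above it, with all those of the head and central stalk, and 6287 of all 12560 tested genes. In OE replicate 1 the peripheral stalk genes were below the NC mean in 4 of 4 cases, as were all 43 genes. ATP5PO, the subunit that joins the stalk to the top of the head, had 301 and 273 CPM with the NC plasmid against 163 and 593 CPM with METTL14. It had the highest fold change of the 43 genes, 0.40 on the log2 scale (SE 0.69, edgeR adjusted p = 0.881), which rested on OE replicate 2 alone. ATP5PB had 352 and 361 CPM with the NC plasmid against 99.4 and 489 CPM with METTL14, and ATP5PD had 291 and 274 CPM with the NC plasmid against 151 and 377 CPM with METTL14. ATP5PF had 130 and 116 CPM with the NC plasmid against 52.2 and 128 CPM with METTL14. ATP5IF1, which blocks ATP hydrolysis by the head, had 394 and 330 CPM with the NC plasmid against 200 and 388 CPM with METTL14 (log2 fold change -0.30).

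The small membrane subunits at the base of complex V were lower in both OE libraries in 3 of 5 tested cases (median log2 fold change -0.68), compared with 0 of 2 genes of the head, 0 of 3 of the central stalk, 0 of 4 of the peripheral stalk, 1 of 3 of the c ring (ATP5MC1, with a median of -0.54 for the ring) and 20.4% of all tested genes. ATP5ME (ENSG00000169020), which supports the pairing of ATP synthases, had similar CPM within each group. It had 286 and 295 CPM with the NC plasmid against 151 and 132 CPM with METTL14. Its mean was 291 ± 6.74 against 141 ± 13.1 CPM (SD, n = 2 each), a log2 fold change of -1.04 (SE 0.37, unadjusted p = 0.0366 and adjusted p = 0.734 by edgeR's quasi-likelihood test). No other gene of the 43 lay that low in OE replicate 2 (log2 difference -1.14). Set against the median of all genes in its own decile of NC level, ATP5ME lay at 0.13 in OE replicate 1. In OE replicate 2 it lay at -1.06, so only that library set it apart from genes of its level. ATP5MF had 304 and 272 CPM with the NC plasmid against 104 and 255 CPM with METTL14, and ATP5MJ had 130 and 106 CPM with the NC plasmid against 37.4 and 104 CPM with METTL14. The log2 fold changes of ATP5MF and ATP5MJ were -0.68 and -0.74, with OE replicate 2 just under the lower NC library in each. ATP5MG, the partner of ATP5ME at the base, had 243 and 211 CPM with the NC plasmid against 120 and 278 CPM with METTL14, above NC in OE replicate 2. ATP5MK had 121 and 82.2 CPM with the NC plasmid against 81.4 and 106 CPM with METTL14.

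The c ring is built from 1 mature protein that 3 genes encode with different targeting sequences, and the share of these genes within a library does not depend on the scaling between libraries. ATP5MC3 held 50.4% and 50.8% of their summed counts in NC, 58.5% in OE replicate 1 against 68.2% in OE replicate 2, or 50.6 ± 0.291% against 63.4 ± 6.92% (SD, n = 2 each). ATP5MC2 held 35.1% and 32.8% in NC and 24% and 21.7% in OE. The ATP5MC3 share was thus above both NC libraries, and the ATP5MC2 share below them, in each OE library, beyond counting error: the exact 95% intervals were 49.7 to 51.2% and 50 to 51.7% in NC and 56.8 to 60.1% and 67.7 to 68.8% in OE for ATP5MC3. ATP5MC1 held 14.4% and 16.4% in NC and 17.5% and 10% in OE, with no separation. An exact two-sided permutation test over the libraries gave p = 0.333 for ATP5MC3 and for ATP5MC2 (adjusted p = 0.476 over the 10 shares tested here), the smallest p that 2 against 2 libraries allow.

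**Figure D4:**
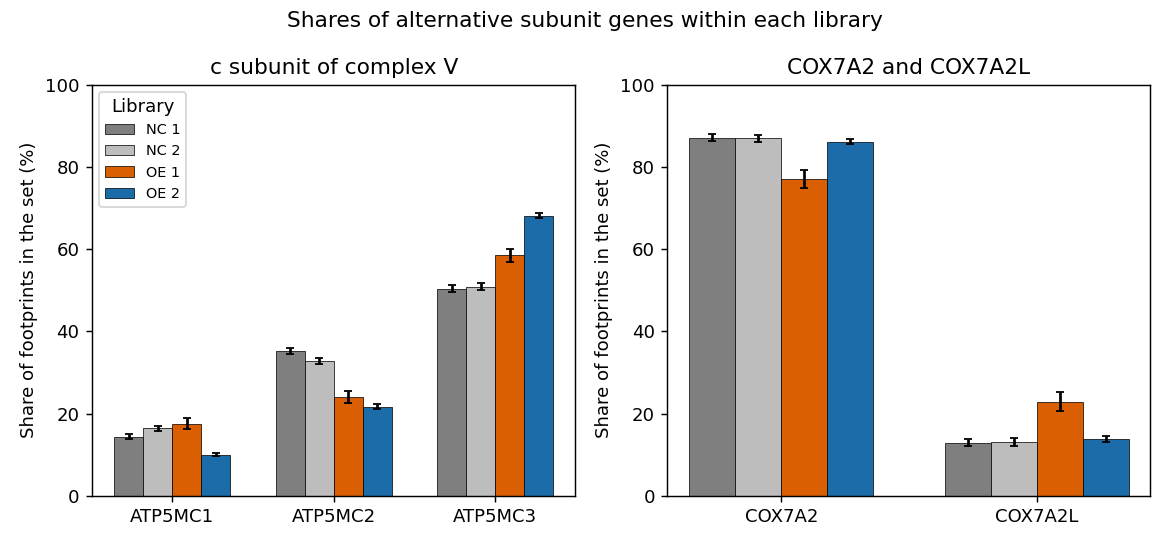
Share of footprint counts (%) held by each gene of a set within each library, with exact 95% intervals that cover counting error: the 3 c subunit genes of complex V on the left, and COX7A2 with COX7A2L on the right. The ATP5MC3 bars are at 50.4% and 50.8% in NC and at 58.5% and 68.2% in OE.

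In CPM the 3 genes split as follows. ATP5MC3 had 439 and 389 CPM with the NC plasmid against 185 and 794 CPM with METTL14, a log2 fold change of 0.24 (SE 0.76) that came from OE replicate 2. ATP5MC2 had 306 and 251 CPM with the NC plasmid against 76.1 and 253 CPM with METTL14 (log2 fold change -0.76), and ATP5MC1 had 126 and 125 CPM with the NC plasmid against 55.6 and 117 CPM with METTL14 (log2 fold change -0.54). The groups of ATP5MC2 overlapped through OE replicate 2, at 253 CPM against 251 CPM in NC replicate 2.

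Within the summed counts of the 51 genes, complexes II and IV held smaller shares in OE and complex V a larger share in OE replicate 2. Complex IV held 30.6% and 29.2% in NC and 28.1% and 26.7% in OE, or 29.9 ± 0.943% against 27.4 ± 1.05% (SD, n = 2 each). That difference rested on COX6A1: without this gene complex IV held 23.3% and 22.2% in NC and 23.8% and 22.1% in OE, with no separation. Complex V held 42.2% and 43.1% in NC, 41.2% in OE replicate 1 against 48.3% in OE replicate 2. Complex III held 18.3% and 18.5% in NC, 21.6% in OE replicate 1 against 16.9% in OE replicate 2. Complex II held 7.13% and 7.49% in NC and 7.09% and 6.31% in OE, and cytochrome c 1.76% and 1.66% in NC and 1.93% and 1.88% in OE. Exact two-sided permutation tests over the libraries gave p = 0.333 for complexes II and IV and cytochrome c and p = 1 for complexes III and V. With 2 against 2 libraries no p below 0.333 was possible, so none of these shares could pass.

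**Figure D5:**
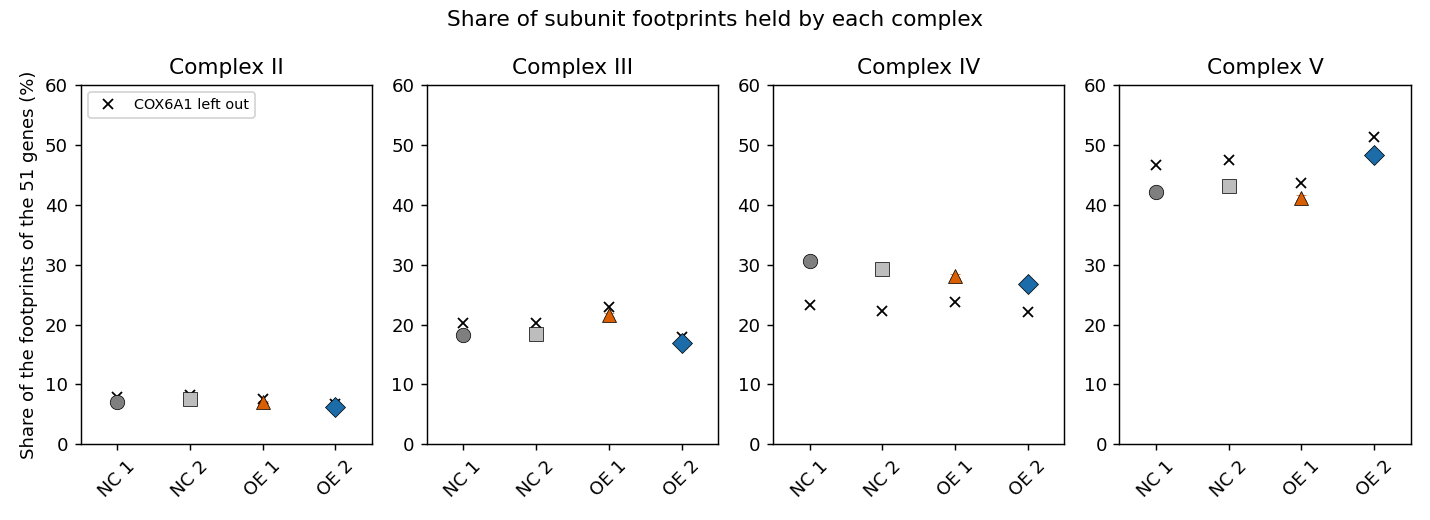
Share (%) of the summed footprint counts of the 51 genes held by each complex in each library, with exact 95% intervals that are mostly smaller than the symbols, and crosses for the same share with COX6A1 left out. For complex IV the symbols lie at 30.6% and 29.2% in NC and at 28.1% and 26.7% in OE, while the crosses lie between 22.1% and 23.8%.

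Removing an OE library changed the calls. Without OE replicate 1, the fit of OE replicate 2 against the NC pair called 18 of 43 genes (34.1% of all tested genes called), 13 of them higher (16.8% of all) and 5 lower (17.3% of all). The 5 lower genes were SDHA, UQCRQ, COX6A1, COX7C and ATP5ME. The higher genes included ATP5PO, ATP5MC3, ATP5F1B, UQCRFS1 and CYC1. Without OE replicate 2, the fit called 41 of 44 genes (60.9% of all tested genes called), 41 of them lower (30.8% of all) and 0 higher (30.1% of all). In both fits the lone OE library was assumed to vary like the NC pair, which varied less than the OE pair. Without OE replicate 1, the log2 fold changes of SDHA, COX6A1, COX7C, ATP5ME and UQCRQ were -0.66, -0.52, -0.39, -1.13 and -0.95. Without OE replicate 2, they were -1.47, -2.01, -1.35, -0.99 and -0.20. Both fits used the same NC pair, so they are not independent, and the difference between those fits was not tested.

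The upstream promoter stretches of some of these genes are shown. Nuclear subunit genes are known for motifs of the factor NRF1 and of the ETS family, which includes GABP. The genes shown were picked from those with a match and are not simply those that parted most in OE replicate 2. UQCRC1 and COX8A, which are shown, had log2 differences of -0.06 and -0.28 in that library. ATP5MC3, SDHA and COX6A1, which are not shown, had 0.94, -0.66 and -0.52. RefSeq promoters of build GRCh38.p14 were matched for 39 of the 51 genes, 35 of them tested, and the positions below are those of that build, not of hg18, the build named for the counts. The NRF1 motif was searched as its consensus of 10 bases with 1 free base, and the ETS motif as CCGGAAGT, each on both strands of the 250 bases before the start, and matches of the 2 motifs were counted separately. Each line gives 70 bases, 5′ to 3′ on the strand of the gene and upstream of its start, with the matches in capitals. ATP5PO, ATP5ME and UQCRC1 hold the NRF1 motif, UQCRQ, COX8A and ATP5PD hold the ETS motif, and SDHD holds both.
ATP5PO (chr21:33915805-33915874, minus strand): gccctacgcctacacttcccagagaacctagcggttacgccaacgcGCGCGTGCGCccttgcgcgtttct
ATP5ME (chr4:674456-674525, minus strand): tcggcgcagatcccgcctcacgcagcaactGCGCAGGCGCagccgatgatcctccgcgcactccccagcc
UQCRC1 (chr3:48609654-48609723, minus strand): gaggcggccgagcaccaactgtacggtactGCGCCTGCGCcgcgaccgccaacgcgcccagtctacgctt
UQCRQ (chr5:132866558-132866627, plus strand): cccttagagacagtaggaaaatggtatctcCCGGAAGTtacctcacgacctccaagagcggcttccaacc
COX8A (chr11:63974550-63974619, plus strand): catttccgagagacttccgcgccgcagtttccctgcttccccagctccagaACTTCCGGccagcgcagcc
ATP5PD (chr17:75047032-75047101, minus strand): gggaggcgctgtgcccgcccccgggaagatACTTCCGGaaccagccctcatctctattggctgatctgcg
SDHD (chr11:112086733-112086802, plus strand): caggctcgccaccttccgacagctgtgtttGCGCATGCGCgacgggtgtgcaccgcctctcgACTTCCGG

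Some genes with the same motif lay on opposite sides of NC in OE replicate 2. In OE replicate 1 all 43 tested genes lay below NC. The genes compared here were picked after their values were seen, from those with a match, and the part of the motifs was not tested. ATP5PO and ATP5ME, with the highest and the lowest log2 difference in OE replicate 2 (1.05 and -1.14), both hold the NRF1 motif, and UQCRQ and ATP5PD, at -0.95 and 0.42 in that library, both hold the ETS motif. The NRF1 motif was found for 9 of 35 tested genes (25.7%), against 5.07% of all 35116 promoters and 6.56% of the 22199 promoters of protein-coding genes. The ETS motif was found for 10 of 35 (28.6%), against 3.42% and 4.41%. Here and for the start sequence below, a gene counted if any of its promoters matched. The other percentages count single promoters, of genes expressed here or not, so they are not like for like. Tested genes with and without the NRF1 motif had medians of -0.95 and -1.16 in OE replicate 1 against 0.26 and 0.10 in OE replicate 2. With and without the ETS motif the medians were -1.03 and -1.17 in OE replicate 1 against 0.08 and 0.14 in OE replicate 2. A start that resembles the terminal oligopyrimidine (TOP) sequence of ribosomal protein messages, a C followed by 4 bases that are each C or T, was found for 8 of 35 tested genes (22.9%), among them ATP5PO, COX4I1, COX7C and ATP5MC2. It was found at 57.3% of 75 promoters of cytosolic ribosomal protein genes and 4.07% of all promoters. Tested genes with and without such a start had medians of -1.19 and -1.15 in OE replicate 1 against 0.20 and 0.10 in OE replicate 2. A match is a description of these letters and of the annotated start, not of a bound factor.

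The nuclear subunits of complex I, the gene group most like these, are given beside them. Of 37 tested genes, 15 (40.5%) lay below both NC libraries in both OE libraries and 0 above, against 20.4% and 19.9% of all tested genes, with medians of -1.11 in OE replicate 1 against 0.03 in OE replicate 2 and a median log2 fold change of -0.41. All 37 lay below the NC mean in OE replicate 1, and 19 lay in the top decile of CPM in NC. No test was made between the groups. The 6 mitochondrially encoded subunits of complexes III to V had medians of 0.12 in OE replicate 1 against -1.63 in OE replicate 2. MT-ATP8 stood apart from the other 5, with log2 differences of -2.50 in OE replicate 1 against 1.45 in OE replicate 2 and of -1.20 between NC replicates 1 and 2. The summed level of the 6 was 28.3% and 31.7% of the mitochondrial plus nuclear level of complexes II to V in NC, 45.3% in OE replicate 1 against 13.1% in OE replicate 2. Without MT-ATP8, an alternative chosen after seeing the data, these shares were 27.5% and 29.8% in NC, 44.9% for OE replicate 1 and 8.22% for OE replicate 2. Such shares set messages read inside the mitochondrion beside those read on cytosolic ribosomes. Whether the libraries captured both alike was not tested.

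Genes listed as assembly factors, most of which insert cofactors or join the subunits, had a median log2 fold change of -0.19 over 48 tested genes, with 0 called. Both OE libraries lay below both NC libraries for 17 of 48 (35.4%) and above for 2, against 20.4% and 19.9% of all tested genes. Their median was -0.62 in OE replicate 1 against 0.10 in OE replicate 2. Of these 48, 3 lay in the top decile of CPM in NC. The members with the smallest p were PET117, a factor for heme in complex IV, FMC1, which helps to form the head of complex V, and COA5, another complex IV factor. PET117 had 11.2 and 16.2 CPM with the NC plasmid against 5.14 and 5.38 CPM with METTL14 (log2 fold change -1.38, SE 0.39), the only assembly factor at an unadjusted p below 0.05. FMC1 had 80.1 and 70.9 CPM with the NC plasmid against 20.6 and 52.3 CPM with METTL14 (log2 fold change -1.05), and COA5 had 16 and 13.2 CPM with the NC plasmid against 10.4 and 8.64 CPM with METTL14.

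Of 12 tested regulators of respiratory genes, 5 were above both NC libraries in both OE libraries and 1 below, where 19.9% and 20.4% of all tested genes were. Their median log2 fold change was 0.16, with 0 called. In OE replicate 1 the median was -0.03, with 6 above the NC mean and 6 below, and in OE replicate 2 it was 0.45, with 8 above and 4 below. The coactivator PPRC1 had 31.2 and 31.3 CPM with the NC plasmid against 34.6 and 61.8 CPM with METTL14 (log2 fold change 0.63, SE 0.38). The receptor ESRRA had 26.4 and 21.5 CPM with the NC plasmid against 28.2 and 41.7 CPM with METTL14 (log2 fold change 0.54), and the coactivator PPARGC1B had 3.14 and 4.75 CPM with the NC plasmid against 7.33 and 5.47 CPM with METTL14. Of these regulators, 0 of 12 lay in the top decile of CPM in NC, and the part of level in the contrast with the subunits was not tested.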

How the data were processed

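The authors deposited estimated counts, 1 table for each library and 1 row for each Ensembl gene. From 13.8% to 14.7% of the values had a fraction, which is why they were rounded before count tests. The submitters' processing notes name RSEM, HISAT2, Bowtie2, StringTie and fastp, and the build hg18. The sources used here give no version, setting, annotation or strand, so overlapping and near-identical genes are uncertain and no gene position of that build is printed. The promoter sequences and their positions are from RefSeq, GRCh38.p14.

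All 20323 genes entered R 4.3.3, edgeR 4.0.16, limma 3.58.1 and DESeq2 1.42.0. The filter (filterByExpr, minimum count 10) left 12560. The contrast of OE over NC used the quasi-likelihood test of edgeR (TMM, group as the only term) with Benjamini-Hochberg adjustment over all tested genes and a threshold of 0.05; the steps were tested on simulated data. P-values measure only the spread between these libraries. Log2 differences of single libraries use log2 CPM with a prior count of 2. Replicate counts differed by a chi-square per degree of freedom of 13 (NC) and 330 (OE), so no pair was a single library deposited again.

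The symbol rule for the genes uses no measured value, but it and the gene lists were set with earlier results of these data known. The naming rule took, per complex, the 4 smallest p and the genes whose groups did not overlap, plus alternative subunit genes; the remaining genes were described after their values were seen. A part of the rule on footprint density per coding length was not run, as no coding lengths were used here, so levels of different genes are not ranked per length. Alternatives were other tests, scalings, filters, a replicate block, leaving out each library and summing rows of one symbol.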

Additional observations from a re-analysis of the deposited data

How the results depend on the processing

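The call of 0 of 43 genes held under every alternative over all 4 libraries, and ranged from 0 to 41 when each library was left out (18 without OE replicate 1, 41 without OE replicate 2). Over all genes, 0 calls became 25 with the DESeq2 Wald test, 29 with edgeR's likelihood ratio test, 24 with the replicate block, and 7 to 7969 when each library was left out. With the replicate block 0 of 43 genes were called and the medians of complexes II, III, IV and V were -0.71, -0.58, -0.55 and -0.57. Same-numbered libraries deviated from their group means with a correlation of -0.0974 over 12560 genes. With so few libraries in each group, this value cannot decide whether same-numbered libraries shared an experiment. When each library was left out the medians ran from -1.33 to -0.02 (II), -1.12 to 0.05 (III), -1.23 to 0.14 (IV) and -1.25 to 0.23 (V). The complex IV share difference moved to 0.167 percentage points without COX6A1, an alternative chosen after seeing the data.

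Library totals alone turned SDHD to 0.05, UQCR11 to 0.10, COX5A to 0.01, COX6B1 to 0.16, ATP5F1C to 0.12, ATP5MG to 0.02, ATP5MK to 0.18 and ATP5PD to 0.11. Limma with quality weights turned UQCRFS1 to -0.31, ATP5MC3 to -0.36 and ATP5PO to -0.11, and the replicate block turned UQCRFS1 to -0.14 and ATP5MC3 to -0.11. Leaving out each library in turn gave these log2 ranges for genes that changed sign: ATP5F1A -1.79 to 0.22, ATP5F1B -1.67 to 0.38, ATP5F1C -0.94 to 0.45, ATP5F1D -1.40 to 0.23, ATP5F1E -1.37 to 0.46, ATP5IF1 -0.90 to 0.10, ATP5MC3 -1.20 to 0.94, ATP5MG -0.96 to 0.30, ATP5MK -0.39 to 0.17, ATP5PB -1.88 to 0.46, ATP5PD -0.95 to 0.42, ATP5PF -1.28 to 0.05, ATP5PO -0.86 to 1.05, COX4I1 -1.60 to 0.10, COX5A -1.05 to 0.33, COX6B1 -0.87 to 0.46, COX6C -1.31 to 0.17, COX7A2 -1.43 to 0.43, COX7A2L -0.44 to 0.54, COX7B -1.23 to 0.14, CYC1 -1.72 to 0.51, CYCS -1.15 to 0.27, SDHB -1.19 to 0.17, SDHD -1.20 to 0.47, UQCR11 -0.72 to 0.26, UQCRB -1.22 to 0.02, UQCRC2 -1.53 to 0.11, UQCRFS1 -0.89 to 0.57 and UQCRH -1.12 to 0.05. Shares per coding length were not run. Depth was lowest in OE replicate 1; the NC libraries alone set the spread in fits with 1 OE library.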

Other observations

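The counts of both UQCR11 rows stood in a fixed proportion. The larger row held exactly 3 times the estimated count of the smaller row in each of the 4 libraries (2630.25 and 876.75 in NC replicate 1), to the 2 decimals of the deposited values. The rows of ATP5PO, COX8A, SDHA and SDHD that were not used held between 0 and 3.74 estimated counts in any library.

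The readthrough model ATP5MF-PTCD1, which shares exons with ATP5MF, had 9.89 and 33.9 CPM with the NC plasmid against 7.14 and 36.9 CPM with METTL14. It thus differed between the NC libraries by -1.77 on the log2 scale (replicate 1 minus replicate 2), where ATP5MF differed by 0.16.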
